A study of Mus musculus with 32 samples.

Results

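The comparison described here set all primary ovarian and oviductal carcinomas of a mouse RNA sequencing study, 12 of its 32 samples, against the 6 samples of normal ovary and normal oviduct. It asked which genes were higher, or lower, in every primary tumour than in every normal sample, whatever cell the tumour had been started in. By this rule 478 of 20887 tested genes had all 12 primary tumours above all 6 normal samples, and 728 had all 12 below. The primary tumours came from 4 models called BPR, for loss of Brca1, loss or mutation of Trp53, and inhibition of Rb. The 3 OSE-BPR tumours and the 2 Ad-BPR tumours carried Brca1 fl/fl and Trp53 fl/fl alleles with the transgene K18GT121 Tg/+, and adenoviral Cre was delivered under the ovarian bursa in OSE-BPR and into the oviduct in Ad-BPR. The 4 Pax8-BPR tumours carried these alleles together with Pax8-CreERT2 Tg/+, and the 3 Ovgp1-BPR tumours carried Brca1 fl/fl, the allele Trp53 KozR172H ki/+, the same K18GT121 transgene and Ovgp1-CreERT2 Tg/+. In both, tamoxifen activated Cre in secretory cells of the oviduct. The labels of Ovgp1-BPR give the mutant Trp53 allele, while the series description also lists floxed Trp53 in its genotype, and the labels were followed. The normal ovaries and oviducts were wild type and came from the same 3 C57Bl/6 mice. OSE-BPR mice were FVB and the other 3 models C57Bl/6, so strain and model cannot be told apart in OSE-BPR. All tumours were taken at endpoint, and 14 allografts of the same models were set against the primary tumours.

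K18GT121 places T121, a fragment of the SV40 large T antigen that binds the Rb protein family, under the keratin 18 promoter. Rb proteins hold back E2F transcription factors, which switch on genes for DNA replication, and members of the same family, in the DREAM complex, hold back genes of mitosis. Ovary and oviduct are mixed tissues of smooth muscle, stroma, vessels and epithelium, with steroid-producing cells and oocytes in the ovary and ciliated and secretory cells in the oviduct.

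Levels below are CPM, the authors' expected counts put on a common library total with TMM factors, and are given as the lowest to the highest sample with the median. Library totals of the 18 samples were 14.0 to 20.5 M counts. Folds are log2 changes of primary tumours minus normal tissues, with equal weight for each model and each tissue, a standard error (SE) and a Benjamini-Hochberg adjusted p of edgeR's quasi-likelihood test over all tested genes, called below 0.05. Trp53, counted over the whole gene, was lower than in normal tissue in the models with floxed alleles. The OSE-BPR tumours had 8.40, 12.5 and 14.6 CPM, those of Ad-BPR 14.7 and 16.8 CPM, those of Pax8-BPR 22.7, 25.0, 29.8 and 43.0 CPM and those of Ovgp1-BPR 103, 126 and 157 CPM, against 83.4 to 120 in the normal samples. Brca1, whose total includes exons outside any deleted part and so checks nothing about the deletion, had 17.1 to 70.6 CPM (median 30.8) in primary tumours and 2.03 to 22.5 CPM (median 9.42) in normal samples, a log2 change of 2.06 ± 0.27 (SE, adjusted p = 2.2e-06). Rb1 had 18.6 to 64.6 CPM in primary tumours and 20.6 to 28.2 CPM in normal samples and did not pass the test (log2 change 0.39 ± 0.19, adjusted p = 0.11). The labels do not say whether counting used strand, so values of Gapdh, Tk1, Cxcl10, Pkmyt1, Fam83h, Ppfibp2, Fbxl22, Pln, Synm, Ogn, Mfap4, Nos3, S100b, Rb1, Jmjd8 and Zswim1, which overlap a protein-coding gene on the opposite strand, and of Cdt1, Rad54b, Tapbp and Prlr, which overlap one on the same strand, are uncertain to that extent. Oviducts 1 and 3 held transcripts of the ovary: 18 oocyte genes summed to 240 and 201 CPM in them, 8.42 CPM in oviduct 2 and 653 to 726 CPM in the ovaries.

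Across all tested genes the contrast was broad: 8528 genes (40.8%) were called, 3849 higher (18.4%) and 4679 lower (22.4%), with a median log2 change over all genes of -0.02. The rule of no overlap was much narrower, holding for 2.29% of tested genes upwards and 3.49% downwards. The counts of each gene list below are to be read beside these shares. The rule uses the same samples as the fold change, so the folds of the genes that meet it describe them and are not further support. Their median log2 change was 1.83 for the 478 higher genes and -2.39 for the 728 lower genes. A gap of at least 2-fold between the nearest tumour and the nearest normal sample was found in 37 of the higher genes and 115 of the lower ones. Just inside the limit, Itgb8, an integrin subunit, had 3.86 CPM in its lowest tumour and 3.85 CPM in its highest normal sample, and Nup210, a nuclear pore protein, had 29.9 in both. Just outside it stood Sclt1, with 17.3 in both, and Foxa1, whose lowest tumour and all normal samples were at 0. On the lower side Fcgrt, the neonatal Fc receptor, and Zswim1 lay just inside, with 112 and 16.1 CPM in both the highest tumour and the lowest normal sample, and Jmjd8 lay just outside, with 68.8 CPM in the highest tumour and 68.7 CPM in the lowest normal sample.

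**Figure D1:**
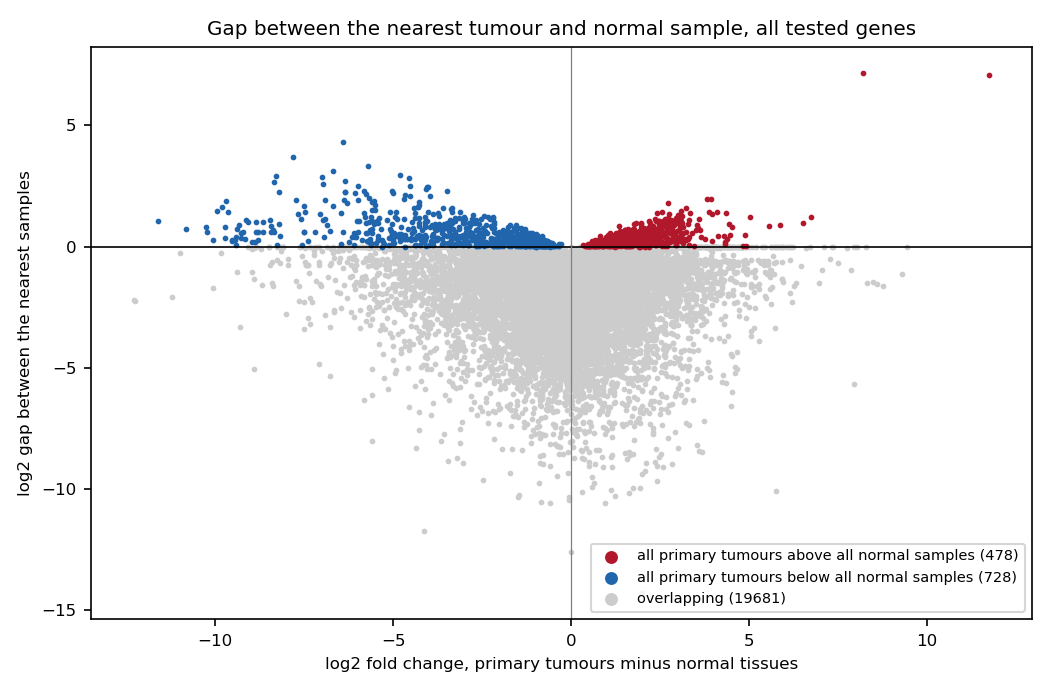
Each point is a tested gene, with the log2 fold change of primary tumours minus normal tissues on the x axis and, on the y axis, the log2 ratio between the nearest tumour and the nearest normal sample after adding 0.1 CPM. Points above 0 are the 478 genes with every primary tumour above every normal sample (red) and the 728 with every primary tumour below (blue), and 2 red points stand far above the rest.

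Cdkn2a, at chr4:89274471-89294653 of GRCm38, encodes p16Ink4a and p19Arf, inhibitors that act on the Rb and p53 pathways, and had the widest gap of all named genes. It reached 161 to 319 CPM (median 214) in the 12 primary tumours and 0.42 to 1.03 CPM (median 0.882) in the 6 normal samples, a log2 change of 8.19 ± 0.31 (adjusted p = 4.1e-16). Its lowest tumour was 143 times its highest normal sample, 0.1 CPM being added to both. The test among the 4 models gave an adjusted p of 0.52, with means ± SD of 217 ± 50 CPM in OSE-BPR (n = 3), 206 ± 23.7 in Ad-BPR (n = 2), 269 ± 62.8 in Pax8-BPR (n = 4) and 196 ± 30.6 in Ovgp1-BPR (n = 3). The counts do not tell the p16Ink4a transcript from the p19Arf transcript.

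Of 43 tested regulators of the Rb, E2F and cyclin pathway, 29 rose and 3 fell, and 14 had every primary tumour above every normal sample (median log2 change 1.33). E2f1, the founding member of the E2F family, had 40.0 to 95.7 CPM (median 60.8) in tumours and 4.37 to 21.4 CPM (median 12.4) in normal samples (log2 change 2.47 ± 0.17, adjusted p = 3.1e-11). E2f8, a repressor of the family, had 16.8 to 92.4 CPM (median 39.5) in tumours and 1.61 to 8.65 CPM (median 4.71) in normal samples. Pkmyt1, a kinase that restrains Cdk1, had 26.3 to 104 CPM (median 62.8) in tumours and 6.50 to 12.4 CPM (median 9.16) in normal samples. The tumour and normal ranges of these 3 genes did not touch. Against the list, Ccnd2, encoding cyclin D2, fell to 5.00 to 240 CPM (median 31.2) in tumours, against 133 to 253 CPM (median 190) in normal samples, with overlap (log2 change -2.17 ± 0.60, adjusted p = 0.0052). Without the Ovgp1-BPR model its log2 change was -1.58 and was no longer called (adjusted p = 0.072).

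DNA replication was the list most fully held by the rule. All 38 tested genes rose, with a median log2 change of 1.90, and in 30 every primary tumour was above every normal sample. The helicase subunit Mcm6 had 181 to 399 CPM (median 305) in tumours and 8.11 to 86.4 CPM (median 43.1) in normal samples (log2 change 3.09 ± 0.23, adjusted p = 3.0e-10), and its partner Mcm3 had 161 to 299 CPM (median 222) in tumours and 13.4 to 76.4 CPM (median 43.4) in normal samples. Cdt1, which loads that helicase onto origins, had 69.9 to 166 CPM (median 107) in tumours and 6.39 to 27.9 CPM (median 17.5) in normal samples. Chaf1b, a histone chaperone subunit, had 37.8 to 107 CPM (median 75.1) in tumours and 2.55 to 15.9 CPM (median 9.04) in normal samples. For each, the ovaries were the upper normal samples. Mcm6 had 60.8, 61.5 and 86.4 CPM in the ovaries and 25.4, 8.11 and 19.4 CPM in the oviducts.

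Among 23 genes of chromatin linked to replication, 19 rose, 0 fell and 6 had no overlap (median log2 change 1.10). Uhrf1, which keeps DNA methylation through replication, had 140 to 416 CPM (median 227) in tumours and 13.6 to 97.6 CPM (median 49.1) in normal samples. Hmgb2, a chromatin protein of dividing cells, had 156 to 431 CPM (median 244) in tumours and 25.3 to 76.1 CPM (median 45.6) in normal samples. The chaperone Asf1b and the bromodomain ATPase Atad2 likewise had no overlap, with log2 changes of 2.72 ± 0.21 and 3.03 ± 0.20. The supply of nucleotides was less uniform: of 23 genes 13 rose, 1 fell and 4 had no overlap, with a median log2 change of 0.51. Those 4 were Tk1, Tyms, Dut and Rrm1, which make or guard the DNA precursors. Tk1, thymidine kinase, had 45.4 to 155 CPM (median 66.1) in tumours and 2.55 to 17.4 CPM (median 7.84) in normal samples (log2 change 3.34 ± 0.32, adjusted p = 1.4e-08), while Tyms, thymidylate synthase, changed by 1.58 ± 0.18 and Rrm1, of ribonucleotide reductase, by 2.08 ± 0.15.

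**Figure D2:**
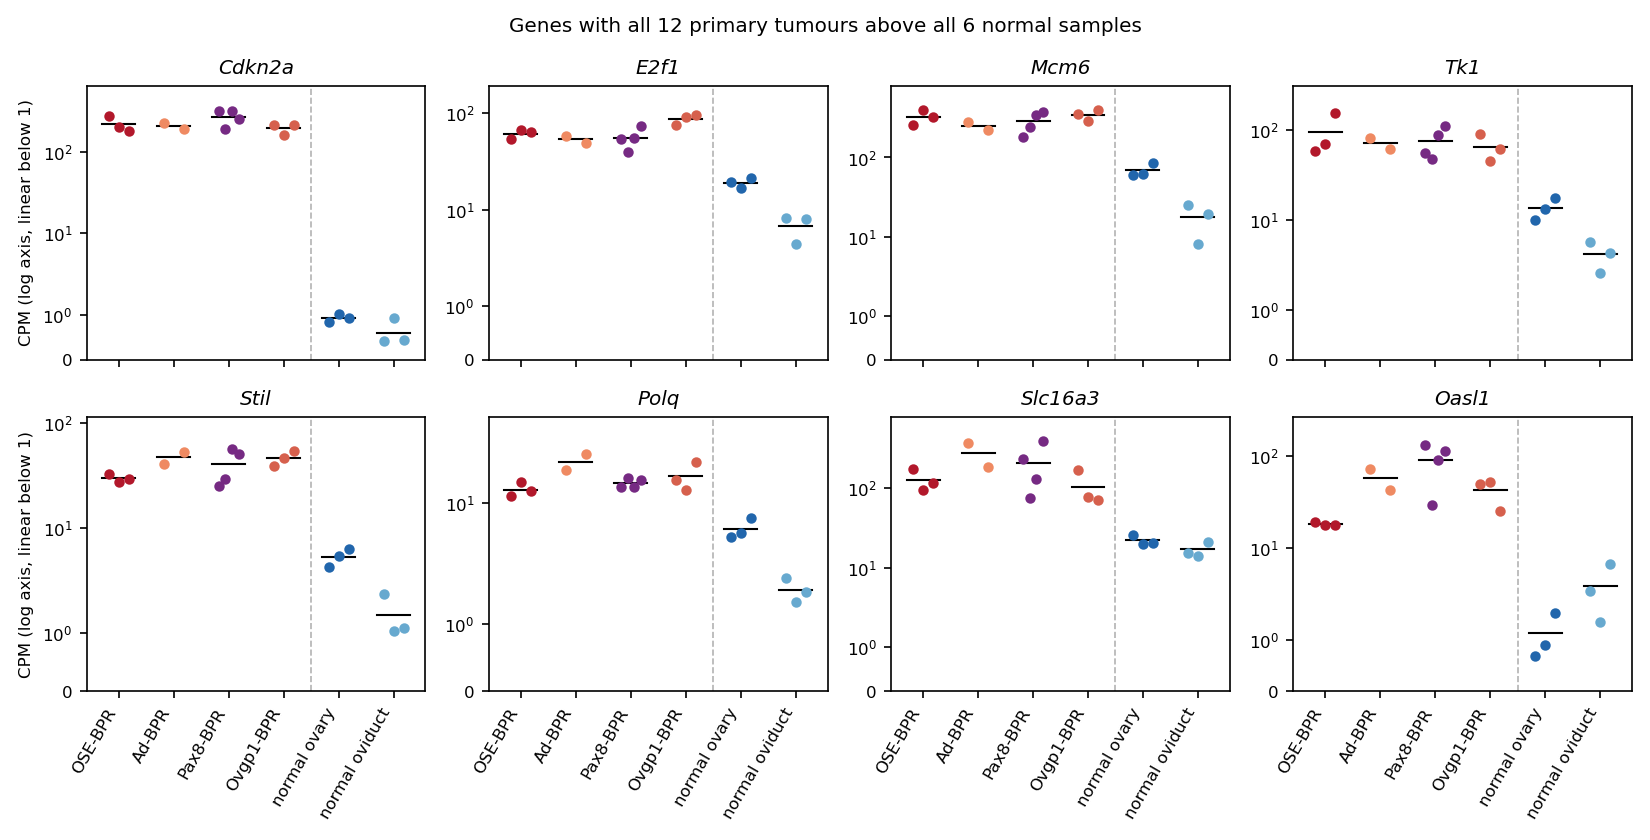
CPM of 8 genes in every primary tumour (left of the dashed line) and normal sample (right), on a log axis that is linear below 1 CPM, with points for samples and bars for group means. In each panel the lowest tumour lies above the highest normal sample, as for Cdkn2a with 161 CPM in the lowest tumour and 1.03 CPM in the highest normal sample.

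In mitosis and the spindle 69 of 70 genes rose and 0 fell, with a median log2 change of 2.39, and 33 had no overlap. Mki67, the Ki-67 antigen of dividing cells, had 150 to 1060 CPM (median 372) in tumours and 5.04 to 121 CPM (median 55.3) in normal samples (log2 change 3.15 ± 0.32, adjusted p = 3.7e-08). Stil, a centriole duplication factor and a gene outside the list, had 25.2 to 56.4 CPM (median 40.1) in tumours and 1.04 to 6.30 CPM (median 3.32) in normal samples, the lowest tumour being 3.95 times the highest normal sample. The kinetochore gene Ndc80, the kinesin Kifc1, the spindle gene Ckap2l and Cdca3, a trigger of mitotic entry, changed by 2.96 ± 0.28, 2.97 ± 0.27, 2.85 ± 0.22 and 2.73 ± 0.25 on the log2 scale. In the summed level of the list the tumour nearest to normal tissue was Pax8-BPR tumour 1, with 2760 CPM, and the other tumours had 4190 to 9500 CPM. The ovaries had 1490, 1680 and 2200 CPM and the oviducts 782, 452 and 731 CPM. That tumour also had the highest Trp53 of the 9 tumours with floxed Trp53, 43.0 CPM, and the highest summed smooth muscle markers of all tumours, 2320 CPM, and the part of remaining normal tissue in its values was not tested. Without the Pax8-BPR model 58 of the 70 mitosis genes had no overlap, against 34 to 41 when another model was left out.

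Promoter sequence was examined for these lists because replication and mitosis genes are textbook targets of E2F and of the complexes that bind the cell cycle homology region (CHR). The windows, from RefSeq on GRCm38.p6, run from 250 bases before to 50 bases after a gene's start, and 359 of the 478 higher and 510 of the 728 lower genes matched one by symbol. E2F letters (TTTCCCGC, TTTGGCGC, TTTCGCGC or TTTGCCGC, either strand) stood in 14 of 35 windows of the replication list (40.0%), 8.46% of the windows of all higher genes, 2.28% of those of lower genes, 3.38% of the windows of tested genes and 2.26% of all windows in the table. CHR letters (TTTGAA, either strand) stood in 44 of 66 windows of the mitosis list (66.7%), 20.9% of those of higher genes, 14.3% of those of lower genes, 13.0% of those of tested genes and 17.9% of all windows. The CCAAT box, in either strand, stood in 74.2% of the mitosis windows and 37.2% of those of tested genes. Median GC content was 61.0% in windows of higher genes and 59.0% in windows of tested genes. A match is a description of letters and not a bound site. The 150 bases before the start of 5 genes are printed in the direction of transcription, with the E2F or CHR letters in capitals, to show the matches in genes described above and in Topbp1, described with the repair genes. They are chr1:128359706-128359855 for Mcm6 (minus strand), chr4:89294620-89294769 for the upstream start of Cdkn2a (minus strand), chr9:103305177-103305326 for Topbp1 (plus strand), chr7:135716380-135716529 for Mki67 (minus strand) and chr2:129297213-129297362 for Ckap2l (minus strand).
Mcm6: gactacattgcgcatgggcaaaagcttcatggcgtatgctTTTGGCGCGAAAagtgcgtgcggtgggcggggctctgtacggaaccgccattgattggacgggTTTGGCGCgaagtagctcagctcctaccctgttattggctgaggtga
Cdkn2a: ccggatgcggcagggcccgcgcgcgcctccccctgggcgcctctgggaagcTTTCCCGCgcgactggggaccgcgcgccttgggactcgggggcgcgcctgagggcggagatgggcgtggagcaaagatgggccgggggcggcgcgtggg
Topbp1: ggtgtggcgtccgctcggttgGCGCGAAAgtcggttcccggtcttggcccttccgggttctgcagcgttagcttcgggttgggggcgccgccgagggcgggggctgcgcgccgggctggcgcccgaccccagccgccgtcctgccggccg
Mki67: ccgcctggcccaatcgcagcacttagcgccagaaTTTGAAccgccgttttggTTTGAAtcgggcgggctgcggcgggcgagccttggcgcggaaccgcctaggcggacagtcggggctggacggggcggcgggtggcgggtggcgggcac
Ckap2l: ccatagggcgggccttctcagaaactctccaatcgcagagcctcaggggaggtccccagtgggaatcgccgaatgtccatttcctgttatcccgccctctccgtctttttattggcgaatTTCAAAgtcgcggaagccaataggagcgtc
Mcm6 holds 3 E2F matches, 2 of which overlap and begin 110 and 106 bases before the start, and Mki67 holds 2 CHR matches. For the second Cdkn2a start in the table, further downstream, the 150 bases before it hold no E2F match.

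Repair genes rose as well. Of 32 genes of homologous recombination and Fanconi repair 24 rose, 1 fell and 8 had no overlap, with a median log2 change of 1.66. Polq, the polymerase of microhomology-mediated end joining, had 11.4 to 25.4 CPM (median 15.2) in tumours and 1.51 to 7.50 CPM (median 3.80) in normal samples. Rad54b and Rbbp8, the end-resection factor CtIP, changed by 2.78 ± 0.23 and 1.59 ± 0.18 on the log2 scale. Among 12 genes of the DNA damage checkpoint 7 rose, 2 fell and 1 had no overlap, Topbp1, an activator of Atr. It had 103 to 242 CPM (median 151) in tumours and 29.6 to 75.2 CPM (median 46.7) in normal samples. Of 25 targets of p53, 6 rose and 5 fell, with a median log2 change of -0.07. These counts lie near the shares of all tested genes, 18.4% higher and 22.4% lower. The list held 1 gene on each side of the rule, which 2.29% and 3.49% of all tested genes met. Pmaip1, the pro-apoptotic Noxa, had 2.68 to 128 CPM (median 28.1) in tumours and 1.04 to 2.16 CPM (median 1.61) in normal samples (log2 change 4.37 ± 0.75, adjusted p = 5.8e-05). Ccng1, cyclin G1, had 16.4 to 66.4 CPM (median 49.0) in tumours and 67.7 to 93.6 CPM (median 80.6) in normal samples (log2 change -0.80 ± 0.22, adjusted p = 0.0043).

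Glycolysis and hypoxia genes were higher too, 20 of 28 tested genes rising and 0 falling, with a median log2 change of 1.13 and 5 genes without overlap. Slc16a3, the lactate exporter MCT4, had the widest gap, with 70.1 to 384 CPM (median 149) in tumours and 14.1 to 25.5 CPM (median 20.1) in normal samples (log2 change 3.10 ± 0.34, adjusted p = 1.4e-07). Pkm, pyruvate kinase, had 925 to 2800 CPM (median 1650) in tumours and 577 to 715 CPM (median 658) in normal samples. Eno1, enolase, had 443 to 1400 CPM (median 947) in tumours and 244 to 325 CPM (median 277) in normal samples. Gapdh, often taken as a reference gene, had 849 to 2370 CPM (median 1430) in tumours and 450 to 603 CPM (median 538) in normal samples (log2 change 1.42 ± 0.18, adjusted p = 1.2e-06). Pseudogenes of Gapdh, Pkm and Eno1 exist, and how reads shared with them were divided was left to the authors' quantification.

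In the interferon response list 20 of 28 genes rose and 2 fell, with a median log2 change of 1.76, and 5 had every primary tumour higher. The median was 0.43 in OSE-BPR, 1.95 in Ad-BPR, 3.44 in Pax8-BPR and 1.20 in Ovgp1-BPR. The test among the 4 models called 23 of the 28 genes, against 44.6% of all tested genes. The list summed to 586 to 2460 CPM in tumours and 465 to 709 CPM in normal samples, with overlap. Without the Pax8-BPR model 15 rose and the median was 1.17. Oasl1, an oligoadenylate synthetase-like protein, had 17.7 to 130 CPM (median 46.0) in tumours and 0.693 to 6.69 CPM (median 1.77) in normal samples (log2 change 4.36 ± 0.38, adjusted p = 3.1e-09). Its relative Oasl2 had 84.5 to 336 CPM (median 229) in tumours and 22.7 to 62.1 CPM (median 30.5) in normal samples. Rsad2, the antiviral enzyme viperin, and the chemokine Cxcl10 changed by 3.23 ± 0.40 and 5.55 ± 0.74 on the log2 scale. In the main fit 1 gene of the list, Bst2, went the other way without overlap. No gene of the list did so when counts were scaled by RLE factors, library totals or DESeq2, or with TPM values. Bst2, tetherin, had 14.5 to 159 CPM (median 63.3) in tumours and 163 to 209 CPM (median 193) in normal samples (log2 change -1.70 ± 0.27, adjusted p = 2.5e-05). Summed markers of T and NK cells ranged from 4.82 to 81.0 CPM in tumours and from 10.9 to 25.0 CPM in normal samples, and summed macrophage markers from 151 to 4090 CPM in tumours and from 396 to 687 CPM in normal samples, the highest of both in Pax8-BPR tumours. Their part in the interferon values was not tested. Of 17 antigen presentation genes 9 rose, 0 fell and 1 had no overlap, Tapbp, the tapasin that loads class I molecules, with 280 to 916 CPM (median 382) in tumours and 127 to 188 CPM (median 143) in normal samples.

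Kinases, receptors and regulators outside the lists above were also among the higher genes. The serine/threonine kinase Pim1 had 91.8 to 302 CPM (median 152) in tumours and 25.7 to 35.1 CPM (median 28.6) in normal samples (log2 change 2.41 ± 0.22, adjusted p = 9.9e-09). Map3k9, a kinase upstream of Jnk, had 15.5 to 52.3 CPM (median 24.7) in tumours and 0.972 to 3.90 CPM (median 1.81) in normal samples (log2 change 3.94 ± 0.25). Lpar2, a receptor for lysophosphatidic acid, had 25.1 to 93.7 CPM (median 37.2) in tumours and 6.60 to 9.19 CPM (median 7.33) in normal samples. Met, the receptor of hepatocyte growth factor and a member of the hormone and growth factor receptor list, had a narrower gap, with 33.4 to 201 CPM (median 95.7) in tumours and 6.17 to 23.3 CPM (median 12.2) in normal samples. The transcription regulator Tcf19, the endocytosis factor Fcho1 and the cell adhesion protein Pcdh19 changed by 3.00 ± 0.20, 2.72 ± 0.18 and 3.24 ± 0.53. Igf2bp1, an RNA-binding protein of fetal tissue, had 0.591 to 52.5 CPM (median 10.2) in tumours and 0.12 to 0.277 CPM (median 0.224) in normal samples. It was the 1 gene without overlap among 19 oncofetal genes, of which 2 rose and 3 fell. Of all tested genes 18.4% rose and 22.4% fell.

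Epithelial genes rose without meeting the rule. Of 34 keratin and junction genes 25 rose and 0 fell, with a median log2 change of 2.36, yet 0 had every primary tumour above every normal sample. The list summed to 1370 to 15200 CPM in tumours, 3600 to 4000 CPM in oviducts and 442 to 502 CPM in ovaries, and the 3 OSE-BPR tumours and 2 Ovgp1-BPR tumours lay below every oviduct. Krt18, whose promoter drives T121, had 274 to 1450 CPM (median 717) in tumours, 278, 293 and 382 CPM in oviducts and 10.1 to 14.0 CPM in ovaries (log2 change 3.45 ± 0.37, adjusted p = 7.8e-08). Krt8, its partner, had 236 to 1830 CPM (median 634) in tumours and 25.4 to 420 CPM (median 200) in normal samples. Epcam, the epithelial adhesion molecule, had 3.63 to 1550 CPM (median 503) in tumours and 11.9 to 190 CPM (median 96.8) in normal samples (log2 change 3.05 ± 0.83, adjusted p = 0.0047). Without oviducts 1 and 3, 12 of the 34 genes rose and Epcam was not called (adjusted p = 0.087), and without the Pax8-BPR model 16 rose. The keratin Krt14, of basal epithelium and outside the list, had no overlap, with 6.01 to 479 CPM (median 36.2) in tumours and 0.229 to 2.98 CPM (median 0.579) in normal samples.

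Lineage genes of the oviduct and of mesothelium varied with the model. Pax8, a transcription factor of oviduct secretory cells, had 0 to 207 CPM (median 91.7) in tumours and 0.171 to 115 CPM (median 41.7) in normal samples and was not called in the common contrast (log2 change 1.62 ± 0.75, adjusted p = 0.087). Set against both normal tissues it changed by -5.56 in OSE-BPR, 4.04 in Ad-BPR, 3.72 in Pax8-BPR and 4.29 in Ovgp1-BPR on the log2 scale, these contrasts sharing their normal samples. Wt1, a marker of serous carcinoma that mesothelium also makes, had 12.7 to 1030 CPM (median 463) in tumours and 95 to 178 CPM (median 120) in normal samples (log2 change 1.72 ± 0.34). Ovgp1, the oviductal glycoprotein, had 1.45 to 799 CPM (median 7.48) in tumours, 3980, 6220 and 10300 CPM in oviducts and 2.85, 3.81 and 3.83 CPM in ovaries.

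**Figure D3:**
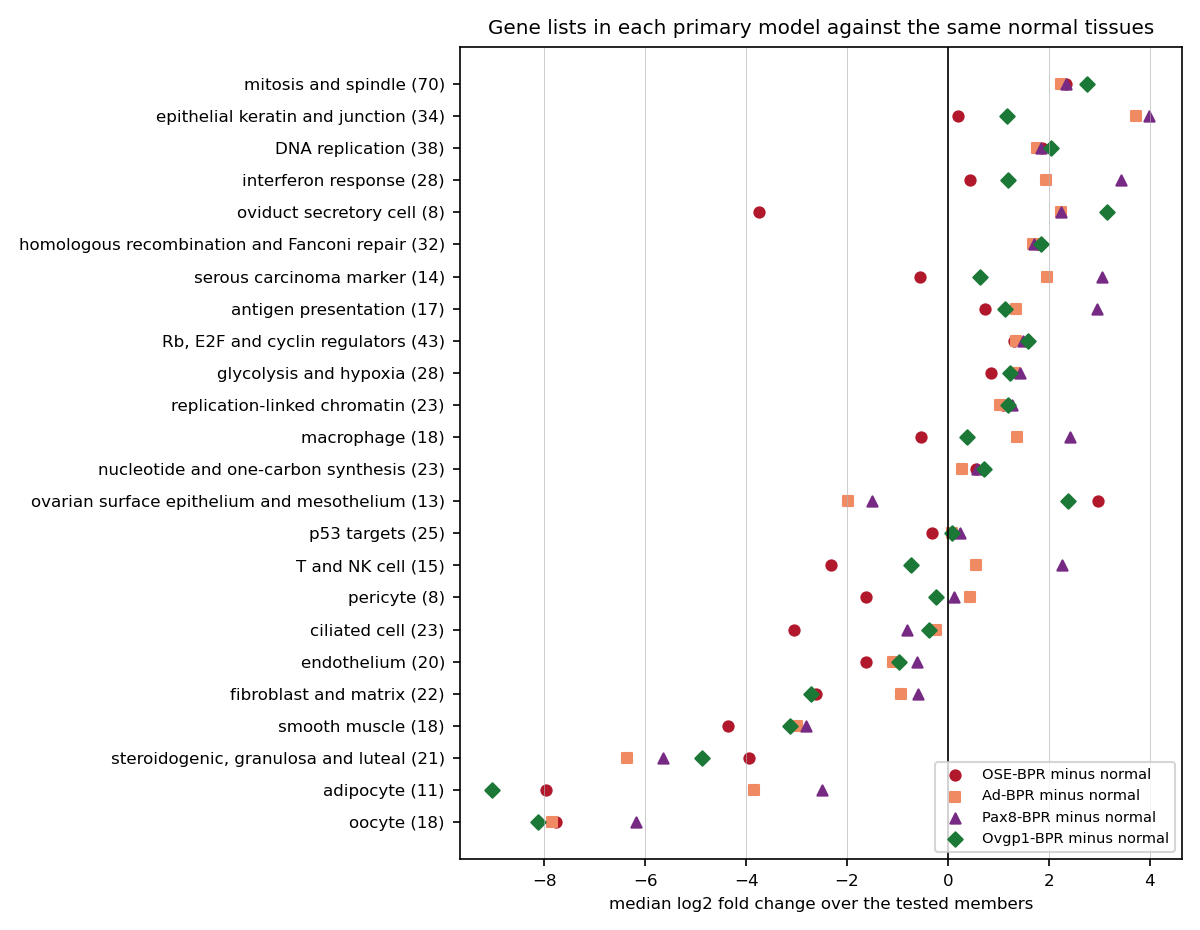
Median log2 fold change of each gene list (number of tested members in brackets) in each primary model against the same 6 normal samples, 1 symbol per model. The replication list lies between 1.77 and 2.05 in all 4 models and the mitosis list between 2.25 and 2.76, while the epithelial list ranges from 0.21 in OSE-BPR to 3.99 in Pax8-BPR.

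Smooth muscle genes were lower in the tumours. All 18 genes of the list fell, with a median log2 change of -3.37, and in 8 every primary tumour lay below every normal sample. In bulk tissue fewer cells of a type and less RNA per cell cannot be told apart. Myocd, the master regulator of smooth muscle genes, had the widest gap downwards, with 0 to 1.06 CPM (median 0.191) in tumours and 22.7 to 35.0 CPM (median 26.9) in normal samples (log2 change -6.42 ± 0.77, adjusted p = 4.4e-07). Its target Myh11, smooth muscle myosin, had 2.80 to 151 CPM (median 23.9) in tumours, 3260 to 3710 CPM in oviducts and 565 to 726 CPM in ovaries (log2 change -5.98 ± 0.57, adjusted p = 1.4e-08). Lmod1, which builds actin filaments, and Synm, an intermediate filament protein, changed by -5.10 ± 0.59 and -3.33 ± 0.58. Outside the list, Pln, the brake on the calcium pump of muscle, had 0 to 0.265 CPM in tumours and 4.57 to 20.6 CPM in normal samples, and Fbxl22, a muscle F-box protein, had 0.494 to 6.2 CPM in tumours and 44.1 to 81.3 CPM in normal samples. The list summed to 458 to 2320 CPM in tumours and 3190 to 18200 CPM in normal samples.

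Single genes of prostaglandin and hormone signalling were also among the lower genes. Ptgfr, the prostaglandin F receptor, had 0 to 1.88 CPM (median 0.251) in tumours, 26.5, 14.6 and 29.6 CPM in oviducts and 351, 509 and 579 CPM in ovaries (log2 change -8.30 ± 0.58, adjusted p = 6.0e-11). Hpgd, which breaks prostaglandins down, had 0.603 to 5.29 CPM (median 1.85) in tumours and 29.6 to 42.2 CPM (median 35.4) in normal samples. Oxtr, the oxytocin receptor, had 0.134 to 43.9 CPM (median 2.46) in tumours and 48.9 to 168 CPM (median 71.6) in normal samples. Of 22 hormone and growth factor receptors 3 rose, 7 fell, and Met above and Oxtr below were the 2 without overlap. Of all tested genes 18.4% rose and 22.4% fell. Adcy5, an adenylate cyclase, the orphan receptor Gpr27 and Ano4, of the anoctamin family, changed by -4.52 ± 0.54, -5.69 ± 0.78 and -4.82 ± 0.40. Mpped2, a phosphodiesterase, changed by -5.99 ± 0.84. Ugt1a6b and Ccl21a also had wide gaps, but both belong to families of near-identical copies among which reads can be split, and their values are uncertain.

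Genes of ovarian cell types fell in most cases, but few met the rule. Of 21 steroidogenic, granulosa and luteal genes 0 rose, 19 fell (median log2 change -5.46) and 2 had no overlap. Without oviducts 1 and 3, 17 fell and the median was -4.01. This list summed to 240 to 1310 CPM in tumours, 386 to 3120 CPM in oviducts and 20700 to 23300 CPM in ovaries. Tumours and oviducts thus overlapped in the sum, and the ovaries lay far above both. Prlr, the prolactin receptor, had 0.269 to 4.10 CPM (median 1.37) in tumours, 32.8, 8.58 and 19.7 CPM in oviducts and 271 to 289 CPM in ovaries. Cyp19a1, the aromatase that makes oestrogen, had 0 to 0.067 CPM in tumours, with 1 count in all 12 libraries, 4.02, 0.156 and 0.77 CPM in oviducts and 54.9 to 150 CPM in ovaries. Of 18 oocyte genes 17 fell and 6 had no overlap (median log2 change -7.42), and without oviducts 1 and 3, 14 fell and the median was -5.01. Zp1 and Zp2, of the egg coat, Nlrp5, a maternal effect gene, and H1foo, the oocyte linker histone, had at most 0.0707, 0.495, 0.919 and 0.141 CPM in any primary tumour. Their lowest normal values, 0.52, 0.936, 1.09 and 0.572 CPM, were all those of oviduct 2, the normal sample with the lowest summed oocyte genes. Sfrp4, a secreted Wnt modulator, had 0.061 to 56.3 CPM (median 2.54) in tumours, 65.0 to 142 CPM in oviducts and 1360 to 1640 CPM in ovaries.

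**Figure D4:**
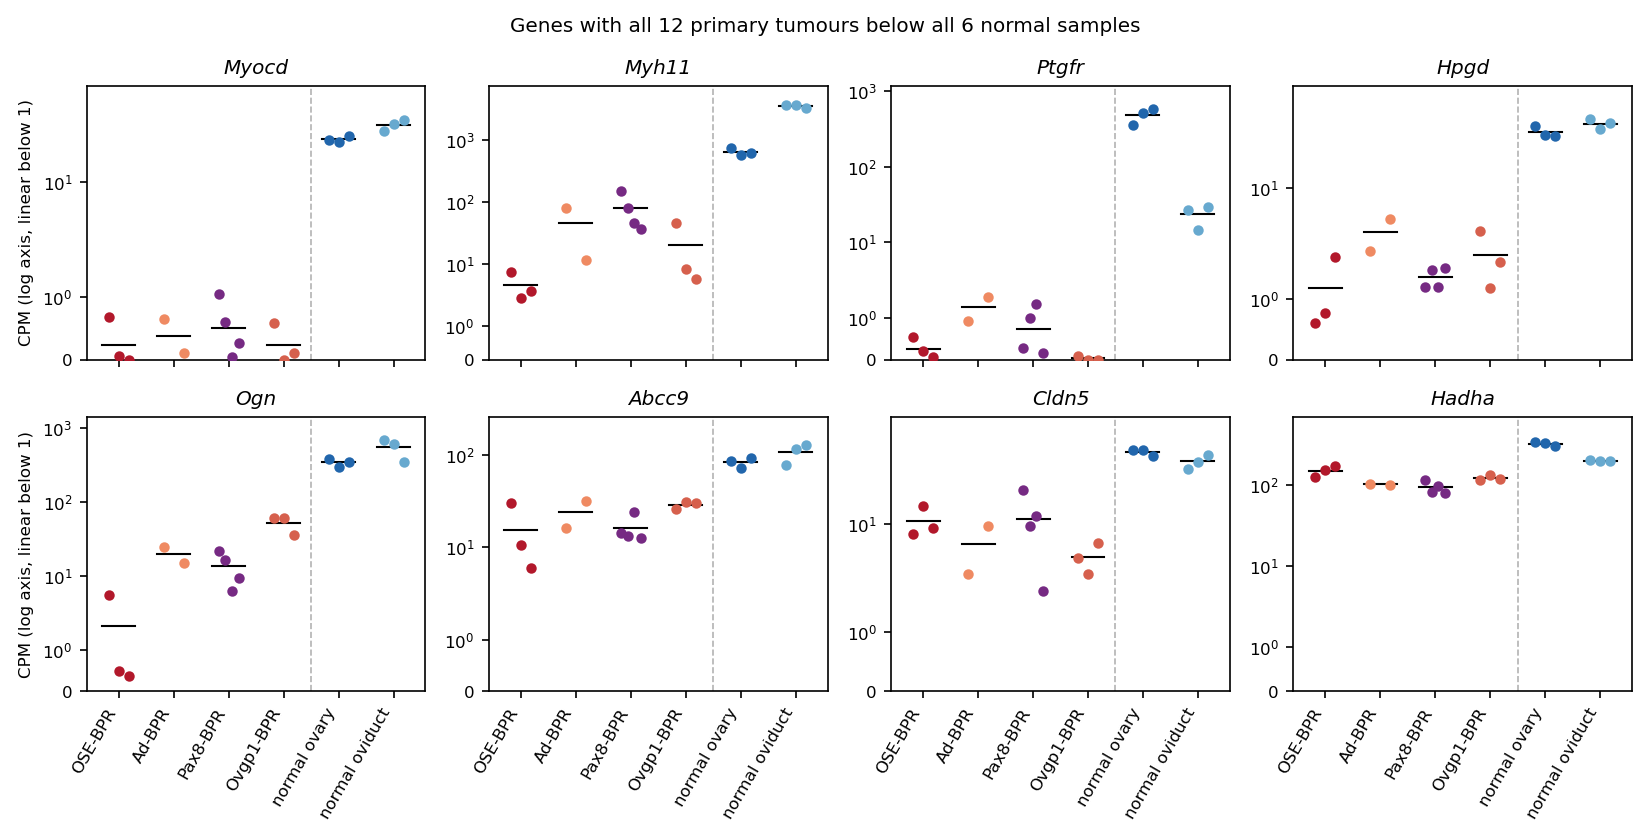
CPM of 8 genes in every primary tumour (left of the dashed line) and normal sample (right), on a log axis that is linear below 1 CPM, with points for samples and bars for group means. In each panel the highest tumour lies below the lowest normal sample, as for Myocd with 1.06 CPM in the highest tumour and 22.7 CPM in the lowest normal sample.

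Stromal and vascular lists fell in part. Of 22 fibroblast and matrix genes 1 rose, 13 fell and 4 had no overlap (median log2 change -1.54). Ogn, a small proteoglycan, had 0.366 to 59.9 CPM (median 15.6) in tumours and 292 to 684 CPM (median 363) in normal samples (log2 change -5.04 ± 0.66, adjusted p = 1.8e-06). Clec3b, Tcf21, a transcription factor of stromal fibroblasts, and the microfibril protein Mfap4 changed by -4.85 ± 0.84, -3.75 ± 0.87 and -3.01 ± 0.88. Mfap4 was not called when models and tissues were pooled (adjusted p = 0.094). Of 20 endothelial genes 1 rose, 14 fell and 4 had no overlap (median log2 change -1.15). Cldn5, of endothelial tight junctions, had 2.36 to 20.7 CPM (median 8.57) in tumours and 32.2 to 48.3 CPM (median 43.1) in normal samples. Nos3, the endothelial nitric oxide synthase, and the receptor Tie1 changed by -1.27 ± 0.21 and -1.30 ± 0.22. Prox1, the regulator of lymphatic endothelium, had 0 to 2.09 CPM (median 0.494) in tumours and 3.48 to 8.16 CPM (median 4.82) in normal samples. The summed endothelial markers overlapped, at 415 to 933 CPM in tumours and 769 to 971 CPM in normal samples.

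Pericyte, fat and glial genes gave smaller groups. Abcc9 and Kcnj8, which form a potassium channel of pericytes, were the 2 without overlap among 8 pericyte genes, of which 2 rose and 3 fell. Abcc9 had 5.98 to 31.7 CPM (median 20.2) in tumours and 72.0 to 126 CPM (median 89.2) in normal samples, and Kcnj8 had 1.77 to 21.6 CPM (median 9.05) in tumours and 22.3 to 77.2 CPM (median 42.3) in normal samples. All 11 adipocyte genes fell (median log2 change -6.05) and 2 had no overlap, or 8 without the Pax8-BPR model (median -7.26). Plin1, which coats fat droplets, had 0.0546 to 15.8 CPM (median 0.276) in tumours and 34.9 to 128 CPM (median 86.1) in normal samples, and Pparg, the regulator of fat cells that granulosa cells also use, had 0.122 to 8.06 CPM (median 4.00) in tumours and 15.4 to 39.4 CPM (median 24.5) in normal samples. Of 8 genes of peripheral glia and nerve 1 rose, 4 fell and 1 had no overlap, and the list summed to 34.4 to 258 CPM in tumours and 46.9 to 103 CPM in normal samples. The gene without overlap, S100b, a glial protein, had 0 to 1.22 CPM in tumours and 6.03 to 15.5 CPM in normal samples. Among 23 ciliated cell genes 1 rose, 6 fell and 1 had no overlap. Of all tested genes 22.4% fell and 3.49% were lower without overlap. The ciliated cell list summed to 68.6 to 675 CPM in tumours, 1210 to 1850 CPM in oviducts and 56.6 to 64.9 CPM in ovaries. Every tumour thus lay below every oviduct and above every ovary in this sum. The ciliated cell gene without overlap was Ccno, which drives the making of many cilia and is also found in oocytes. It had 0 to 0.53 CPM in tumours and 3.95 to 24.6 CPM in normal samples, the ovaries being higher than the oviducts.

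The sample nearest to the other group was not spread evenly. For 259 of the 478 higher genes the highest normal sample was ovary 3, and for 338 it was an ovary. The lowest tumour was a Pax8-BPR tumour for 212 of them, with 124 for Pax8-BPR tumour 1, an OSE-BPR tumour for 141, an Ovgp1-BPR tumour for 70 and an Ad-BPR tumour for 55. For the 728 lower genes the lowest normal sample was an oviduct for 420, and the highest tumour was a Pax8-BPR tumour for 282 and an OSE-BPR tumour for 244. The count of genes rose when any whole model was left out, and a rule over fewer tumours is easier to meet. Without OSE-BPR 935 genes were higher and 1228 lower, and without Pax8-BPR 910 were higher and 1311 lower. The counts were 675 and 927 without Ovgp1-BPR and 578 and 792 without Ad-BPR. Without Pax8-BPR tumour 1 alone they were 619 and 896.

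**Figure D5:**
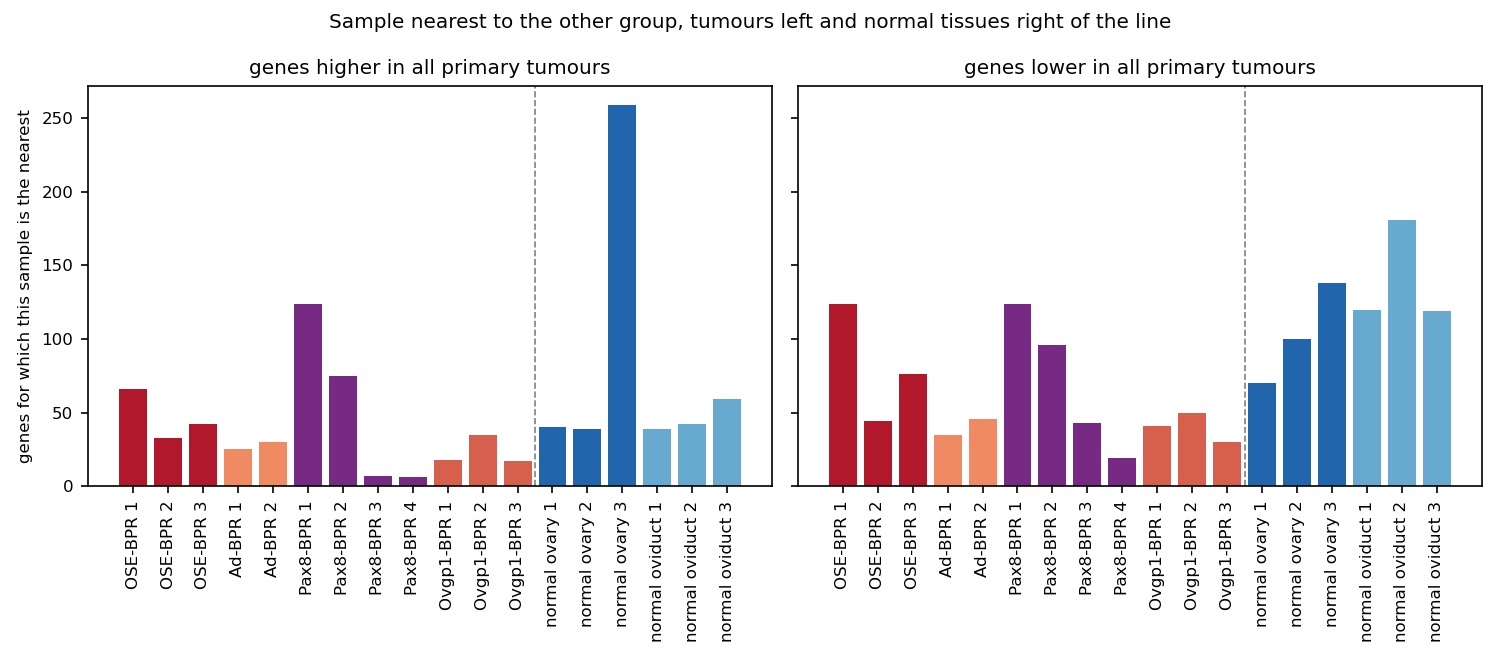
Number of genes for which each sample is the tumour or the normal sample nearest to the other group, for the 478 genes higher in all primary tumours (left panel) and the 728 lower (right panel), with tumours left and normal tissues right of the dashed line. Ovary 3 is the nearest normal sample for 259 of the higher genes and oviduct 2 for 181 of the lower genes.

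A minority of the genes of the rule differed in level among the 4 models. An F test of the quasi-likelihood fit called a difference among the models for 9319 of all tested genes (44.6%), for 128 of the 478 higher genes (26.8%) and for 190 of the 728 lower genes (26.1%). These shares are a description, since the rule used the same tumours. Ahcy, which breaks down S-adenosylhomocysteine, averaged 90.7 ± 26.5 CPM in OSE-BPR (SD, n = 3), 136 ± 19.7 in Ad-BPR (n = 2), 117 ± 23.8 in Pax8-BPR (n = 4) and 448 ± 150 in Ovgp1-BPR (n = 3), against 22.8 to 33.7 CPM in normal samples (adjusted p = 5.9e-06 among models). Cbs, which takes the homocysteine onward, was lower than normal tissue in all models and averaged 1.06 ± 0.709 CPM in OSE-BPR, 23.0 ± 1.70 in Ad-BPR, 1.17 ± 0.619 in Pax8-BPR and 10.2 ± 2.69 in Ovgp1-BPR, against 583 to 765 CPM in oviducts and 40.6 to 45.0 CPM in ovaries (adjusted p = 7.1e-06 among models). Lockd, a long noncoding RNA beside Cdkn1b, averaged 52.8 ± 18.5 CPM in OSE-BPR, 10.2 ± 1.45 in Ad-BPR, 13.9 ± 5.05 in Pax8-BPR and 47.7 ± 5.95 in Ovgp1-BPR. Ppfibp2, a liprin, was likewise higher in OSE-BPR and Ovgp1-BPR, at 282 ± 53.6 and 225 ± 50 CPM, than in Ad-BPR and Pax8-BPR, at 59.1 ± 6.67 and 81.2 ± 32.4 CPM. Fam83h showed the other order, with 45.4 ± 6.07 in OSE-BPR, 129 ± 14.5 in Ad-BPR, 119 ± 32.8 in Pax8-BPR and 45.1 ± 6.96 in Ovgp1-BPR.

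Allografts did not differ from primary tumours in any gene at an adjusted p below 0.05: edgeR called 0 of 20887 tested genes (0%), and 1666 had an unadjusted p below 0.05. The labels do not say whether allografts share a source tumour. Among the higher genes the median log2 change of allografts minus primary tumours was 0.09 and among the lower genes -0.04. With the 14 allografts added, 322 of the 478 higher genes and 468 of the 728 lower genes still had no overlap with normal samples. Leaving out predicted genes, pseudogenes and genes under 10 CPM in the higher group, the 5 genes of the rule with the smallest p for allografts were Ppfibp2, Gps1, Abcc9, Ppp1r16b and Krt14. Krt14 had 15.9 to 1210 CPM (median 187) in allografts and 6.01 to 479 CPM (median 36.2) in primary tumours (log2 change 1.93 ± 0.57, adjusted p = 0.43). Abcc9 had 5.39 to 31.5 CPM (median 10.1) in allografts and 5.98 to 31.7 CPM (median 20.2) in primary tumours (log2 change -0.79 ± 0.22, adjusted p = 0.38). Ppfibp2 changed by -0.53 ± 0.14, Gps1, a subunit of the COP9 signalosome, by 0.35 ± 0.10, and Ppp1r16b, a phosphatase regulator of endothelium, by -0.77 ± 0.22.

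The normal tissues themselves differed in 2605 tested genes (12.5%), oviduct against ovary. The share was 32.2% of the higher genes, 17 of them higher in oviduct and 137 higher in ovary, and 6.32% of the lower genes. These shares are a description, since the rule used the same normal samples. Replication and mitosis genes were among those higher in ovary: Mcm6 changed by -1.98 and Mki67 by -2.15 on the log2 scale in oviduct minus ovary (adjusted p = 0.00035 and 0.0027).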

How the data were processed

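Bulk RNA was sequenced from tumours and normal tissues. Per the submitters' processing notes the authors used bcl2fastq, cutadapt 1.18, STAR 2.7.0f, RSEM 1.3.1 and Picard with mm10/GRCm38. The deposited expected counts per gene are RSEM estimates and need not be whole, so they were rounded, and the deposited TPM values were used in an alternative only. The labels do not say whether counting used strand, so reads of overlapping antisense genes cannot be told apart. Gene positions are from GENCODE M21 on GRCm38.

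All 32 libraries were fitted with edgeR 4.0.16 (R 4.3.3) by group, with TMM factors (0.891 to 1.12), filterByExpr (minimum count 10) and a quasi-likelihood test, giving each model and each tissue equal weight. Totals of 14.0 to 20.5 M counts limit precision for genes of a few counts, and p-values measure the spread between these samples. Ovary and oviduct of the same number come from the same animal, per the labels, so the numbers pair these samples; correlations of their deviations were -0.06, -0.04 and 0.04. No pair of libraries within a group agreed within counting noise. The fit was tested on simulated data.

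The groups, gene lists and named genes were chosen with earlier results of these data known. Named were the 12 genes per direction with the widest gap and at least 10 CPM, up to 4 members per list (2 against its direction), genes nearest the limit, fixed model genes and 5 each with the smallest p among models and for allografts. Genes of the closing observations were chosen after their values were seen. Alternatives were RLE factors, library totals, DESeq2 1.42.0, limma 3.58.1 on log2(TPM + 1) or log2(TPM + 0.5), other filters, other sample sets, a replicate block and leaving out each library.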

Additional observations from a re-analysis of the deposited data

Results flagged for a closer look

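Among the groups of 4 primary tumours, 112 were checked for a sample apart from the rest, all in Pax8-BPR, the only model with enough tumours. In 10 genes 1 tumour stood apart by Dixon's criterion, and chance alone flags about 1 in 20 groups. The sample apart had 24.1 CPM of Abcc9, 108 CPM of Ccnd2, 46.5 CPM of D130009I18Rik, 31.6 CPM of Igf2bp1, 39.3 CPM of Rsad2 and 75.4 CPM of Tcf19. For the other flagged genes it had 12.6 CPM of Tcf21, 13.8 CPM of Tie1, 0.141 CPM of H1foo and 0.919 CPM of Nlrp5.

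The test among the 4 primary models called 47 of the 113 named genes, a share near the 44.6% of all tested genes that it called. The values that follow are the widest log2 difference between 2 models. The widest were 9.85 for Pax8, 9.13 for Ugt1a6b, 8.20 for Ccl21a, 7.41 for Oxtr, 6.46 for Plin1, 6.10 for Ovgp1, 5.11 for Pparg and 5.03 for Ptgfr. The tumour medians of Plin1 and Ptgfr were very low, so their log2 differences are imprecise, and the values of Ugt1a6b and Ccl21a are uncertain as stated above. In stromal and muscle genes the difference was 4.63 for Ogn, 4.56 for Sfrp4, 4.09 for Myh11 and 3.87 for Lmod1. Among other lower genes it was 4.41 for Cbs, 3.15 for Ccno, 2.28 for Ano4, 2.14 for Bst2, 0.98 for mt-Cytb and 0.68 for Hadha, and it was 3.44 for Trp53, whose allele differs between the models. Interferon-induced genes had 3.99 for Cxcl10, 2.32 for Oasl1, 2.24 for Rsad2 and 1.54 for Oasl2, and the Trim genes had 3.98 for Trim5, 1.54 for Trim6 and 1.37 for Trim34a.

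Among cell cycle and repair genes the difference was 1.48 for Mki67, 1.41 for Cdca3, 1.31 for Tcf19, 1.12 for Rbbp8, 1.10 for E2f8, 1.00 for Atad2, 0.79 for Rrm1 and 0.71 for E2f1. Among the other higher genes the difference was 4.24 for Krt14, 3.81 for Igf2bp1, 2.36 for Lockd, 2.30 for Ahcy and 2.26 for Ppfibp2. It was 1.51 for Fam83h, 1.46 for Lpar2, 1.43 for Map3k9, 1.14 for Eno1, 0.95 for Fcho1 and 0.65 for Gps1. For Wt1 and Krt8, whose tumour and normal ranges overlapped, it was 2.12 and 1.62.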

How the results depend on the processing

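Of 3839 values of 113 named genes over all alternatives, 3826 kept their direction and their side of the threshold and none reversed. Of these, 2033 came from leaving out 1 library at a time. Many of the genes were named for a wide gap or as called list members, so the choice itself favours such stability. It is no further support. Trp53 was not called with models and tissues pooled (log2 change -1.10, adjusted p = 0.056), and Rb1 and Pax8 were called under some alternatives. Without oviducts 1 and 3, 5076 genes were called, 2131 higher and 2945 lower. With at least 10 CPM required, 2915 were lower. Genes without overlap numbered 935 higher and 1228 lower without OSE-BPR, 910 and 1311 without Pax8-BPR, and 468 lower with all 26 tumours. A rule over fewer tumours is easier to meet and one over more is harder. The replicate block of the normal animals gave 8098 calls, 3759 higher and 4339 lower, and changed no call of a named gene. Leaving out each library in turn gave 7362 to 8870 calls, 3310 to 4240 higher and 3811 to 4853 lower, with 487 to 674 higher and 690 to 935 lower without overlap. The share of calls that were higher was 45.1% and ranged from 42.0% to 51.8%. DESeq2 gave 93 genes no adjusted p. Without Pax8-BPR the genes without overlap numbered 17 in repair, 10 in chromatin, 10 in glycolysis, 5 in checkpoint, 10 in endothelium, 8 in fibroblast, 8 in adipocyte and 5 in steroidogenic genes, against 8, 6, 5, 1, 4, 4, 2 and 2 with it. In the groups chosen after values were seen they numbered 11 in complex I and 30 in ribosomal proteins, against 5 and 6. Without OSE-BPR they numbered 5 in steroidogenic and 17 in branched-chain genes, against 2 and 10, and without Ad-BPR 13 in repair. Of p53 targets 3 rose without Pax8-BPR, and their median log2 change without oviducts 1 and 3 was -0.01. Of antigen presentation genes 15 rose without Ovgp1-BPR. With all 26 tumours 11 ciliated, 12 hormone receptor and 5 oncofetal genes fell, and 2 fibroblast genes had no overlap. With TPM 14 ciliated genes fell. Macrophage genes that rose numbered 10 (median log2 change 0.98), but 2 without Pax8-BPR (median 0.46). Without oviducts 1 and 3 their median was 0.85. That setting keeps oviduct 2 alone in its group, so its number of macrophage calls was not set beside the others. With all 26 tumours 3 interferon genes had no overlap. The causes were not tested.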

Other observations

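Several groups of genes outside the lists of the report were among the lower genes. They were put together by symbol after values were seen, so they are counted and not tested. Of 22 genes that break down branched-chain amino acids 20 fell and 0 rose, with a median log2 change of -1.03, and 10 had every primary tumour below every normal sample. Pccb, a subunit of propionyl-CoA carboxylase, had 16.5 to 40.5 CPM (median 26.7) in tumours and 69.6 to 89.0 CPM (median 79.3) in normal samples (log2 change -1.48 ± 0.19, adjusted p = 9.0e-07 by edgeR). Mut, the mutase of the same route, changed by -0.81 ± 0.12 and Mccc2 by -1.05 ± 0.19. Of 30 genes of fatty acid oxidation 19 fell and 9 had no overlap. Hadha, of the mitochondrial trifunctional protein, had 79.5 to 171 CPM (median 115) in tumours and 199 to 346 CPM (median 253) in normal samples. Of 38 complex I genes 24 fell, 1 rose and 5 had no overlap, among them Ndufs8, and of 13 genes of the mitochondrial genome 11 fell and 3 had no overlap, among them mt-Cytb and mt-Nd4. Of 83 ribosomal protein genes 69 fell and 3 rose, by a median of -0.65, though many have processed pseudogenes that share their reads. Without oviducts 1 and 3 the median log2 change was -0.43 for complex I, -0.68 for the mitochondrial genome and -0.58 for ribosomal proteins. With them it was -0.43, -0.74 and -0.65. Leaving them out keeps 1 oviduct in its group, so the numbers of calls in that setting were not compared. The medians alone do not show whether the calls held. For the mitochondrial genome 6 fell without OSE-BPR and 7 without Ovgp1-BPR. Hadha and Mut overlap a protein-coding gene on the opposite strand and mt-Nd4 one on the same strand, so reads there can be shared. Smooth muscle markers summed to 458 to 2320 CPM in tumours and 3190 to 18200 CPM in normal samples, and their part in these values was not tested.

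D130009I18Rik, a long intergenic RNA at chr14:104612791-104966783 (plus strand, GRCm38), was also singled out after its values were seen. It had 13.4 to 62.5 CPM (median 21.0) in the 12 primary tumours, 14.2 to 41.4 CPM in allografts and no count in the 6 normal samples. Its mean was at least 125-fold higher in tumours than the floor of 3 counts in a normal library. Of 6 genes of the imprinted cluster around Snrpn on chromosome 7, 5 fell and 3 had no overlap, and their summed level was 149 CPM in OSE-BPR tumour 1 and 42.3 to 107 CPM in the other tumours, against 138 to 163 CPM in normal samples. Snrpn, which overlaps Snurf on the same strand, had 0 to 6.10 CPM (median 1.11) in tumours and 14.9 to 35.2 CPM (median 22.3) in normal samples, and Mkrn3 had 0 to 1.27 CPM in tumours and 1.64 to 3.43 CPM in normal samples. Of 12 Trim genes of another stretch of chromosome 7, 8 rose, 1 fell and 3 had no overlap, namely Trim5, Trim6 and Trim34a. Cd274, encoding PD-L1, had 5.61 to 60.5 CPM (median 13.6) in tumours and 2.30 to 4.31 CPM (median 2.99) in normal samples (log2 change 2.18 ± 0.36, adjusted p = 3.7e-05 by edgeR).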
